A study of Capra hircus with 2 samples.

Results

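The predicted goat miRNAs are the 276 of 590 listed mature miRNAs that carry a serial number (novel_mir followed by a number) in place of a goat miRNA name. They were taken as every entry whose name does not begin with the goat prefix chi-, and the other 314 entries are called annotated here. Small RNA was sequenced from natural killer (NK) cells of female goats, with 1 library of uterine NK cells (uNK) and 1 library of peripheral blood NK cells (pNK). No treatment, genotype, age, number of animals or sorting marker is given in the sources used here, and the title of the study is about miR-1 and TWEAK, a cytokine. A level is given as reads per 1000000 reads of the library (RPM). Every entry had passed the authors' filter for a difference between the libraries, so each member had to differ and nothing can be said of predicted miRNAs outside the table. With 1 library per group no test between the groups was possible, and the 95% Clopper-Pearson intervals cover counting error only.

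A miRNA is cut from a folded hairpin transcript, first by Drosha in the nucleus and then by Dicer in the cytoplasm, and the mature strand guides Argonaute to messenger RNAs through its seed, a short stretch near its 5′ end. A predicted miRNA is a call by software that reads pile up on a genomic hairpin as they would on a true precursor. Such calls can hold real unnamed miRNAs as well as fragments of other RNAs, and goat has fewer catalogued miRNAs than human or mouse. Functions are not known for numbered entries, so members are described by abundance and presence. Their sequences and loci were not used here, and whether members share a seed, a locus or reads with each other or with an annotated miRNA was not tested.

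Libraries and marker miRNAs differed broadly between the sources. Depth was similar, at 30063448 reads for pNK and 31780927 for uNK by the deposited RPM values. Lymphocyte miRNAs (miR-150, miR-155 and miR-181b listed, miR-181a not listed) were lower in uNK in all 4 listed arms, with a summed level of 20518 RPM in pNK against 186 RPM in uNK, and 1 of these arms was at 0 in a library. Both arms of the myeloid miR-223 were lower in uNK, with 28632 RPM summed in pNK against 21.1 RPM in uNK. All 9 arms of the stromal and smooth muscle list (miR-143, miR-145, miR-199a, miR-199b and miR-214) were higher in uNK, summing to 12158 RPM in pNK against 185567 RPM in uNK. All 5 epithelial miRNAs (miR-200a, miR-200b, miR-200c, miR-141 and miR-429) were higher as well, summing to 257 RPM in pNK against 3592 RPM in uNK. These shifts in cell type markers ran in the same 2 libraries as the differences in predicted miRNAs, and their part in those differences was not tested.

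Predicted miRNAs were mostly a pNK signal. Together they counted 570612 reads in pNK and 60764 in uNK, which is 18980.3 RPM against 1912 RPM, a 9.93-fold lower summed level in uNK (interval 9.84 to 10.01). The summed level of the annotated entries was 1.23-fold lower. Both folds depend on the RPM scale. Other scalings shift log2 ratios by -1.15 to 0.74, which the interval does not cover. As shares of all listed reads, predicted miRNAs held 3.99% in pNK and 0.511% in uNK, and annotated entries 96.0% and 99.5%. Lower in uNK by the authors' deposited table were 222 predicted miRNAs, and 54 were higher. That is 80.4% lower, where 62.0% of all listed entries were lower (38.0% higher) and 45.9% of the annotated entries were. The median log2(RPM + 1) difference, uNK minus pNK, was -0.998 over the predicted miRNAs, -0.74 over all listed entries and 0.58 over the annotated ones. The value over the predicted miRNAs depends on the RPM added, since most of them are written as 0 in a library: it was -1.53 with 0.5 RPM, -0.26 with 5 RPM and -1.95 over the members with reads in both libraries. No test of this contrast was made, because the entries are not replicates of a library.

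**Figure D1:**
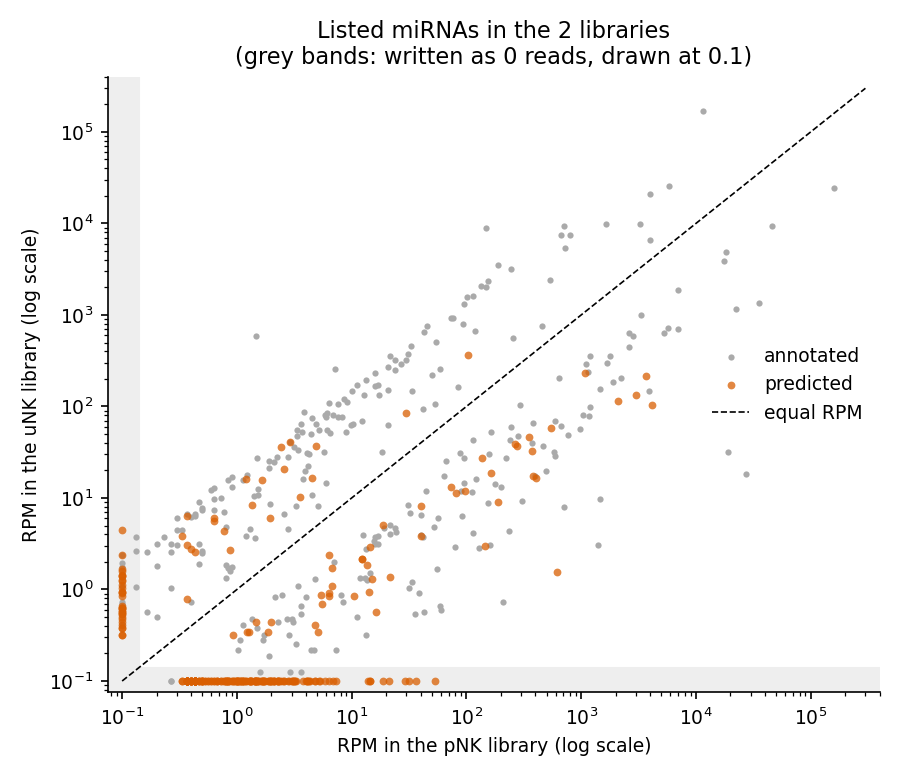
RPM in the pNK library (x axis, log scale) against RPM in the uNK library (y axis, log scale), 1 point for each miRNA. The 276 predicted miRNAs are orange and the annotated ones, of 314 listed, grey. The dashed line marks equal RPM. The grey bands hold entries written as 0 reads and may also hold annotated entries with a few reads. Annotated entries with the fewest reads lie below the axis limits and are not drawn. Of the predicted miRNAs, 175 lie in the band of uNK and 32 in that of pNK, and no listed entry lies on the dashed line because only called entries were deposited.

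The summed difference was carried by a few members. Without the 4 predicted miRNAs with most pNK reads, the summed level was 6106 RPM in pNK against 1345 RPM in uNK, a ratio of 4.54. Without the 10 with most pNK reads, it was 2712 RPM and 983 RPM, a ratio of 2.76. Members were left out by their pNK reads, which by itself lowers the ratio, as it did for the annotated entries, where leaving out 10 moved the ratio from 1.23 to 0.582.

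Most members were listed with reads in a single library. Only 69 of the 276 (25%) had listed reads in both libraries, against 304 of the 314 annotated entries (96.8%). These shares use unlike floors: the smallest count above 0 was 10 for predicted and 1 for annotated entries. With 28 annotated entries at 1 to 9 reads in pNK and 16 in uNK, the annotated share would be lower at a floor of 10. Of the other predicted miRNAs, 175 were written as 0 in uNK (63.4%, against 30.5% of all listed entries) and 32 as 0 in pNK (11.6%, against 6.27%). Among the 69 members with reads in both libraries, 47 were lower in uNK (68.1%) and 22 higher. Of all 373 listed entries with reads in both, 186 were lower (49.9%) and 187 higher. Of the 304 annotated ones, 139 were lower (45.7%).

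A 0 of a predicted miRNA could not be read as an absence of reads. No predicted miRNA had a count of 1 to 9 in either library, and the smallest count above 0 was 10 in both. Annotated entries did take such values, with 28 of them at 1 to 9 reads in pNK and 16 in uNK, down to 1 read. The 0 of a predicted miRNA may therefore stand for fewer than 10 reads or for no prediction in that library, and the 2 cannot be told apart here. For this reason no fold and no upper limit is given for a member written as 0.

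**Figure D2:**
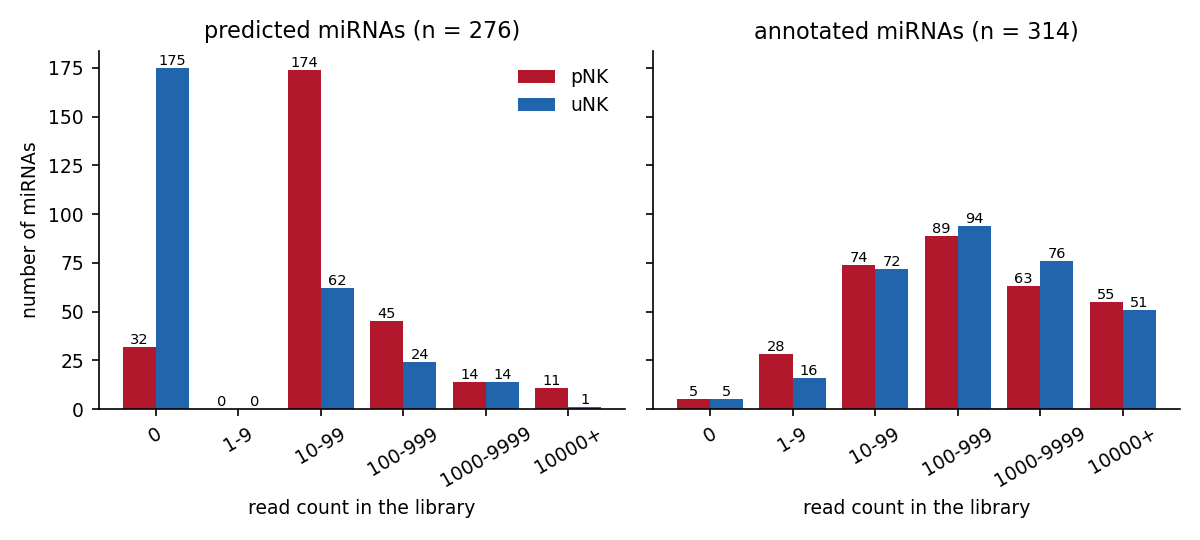
Number of miRNAs (y axis) by read count in the library (x axis) for the predicted miRNAs on the left and the annotated ones on the right, with pNK in red and uNK in blue. The class of 1 to 9 reads is empty for the predicted miRNAs in both libraries and holds 28 (pNK) and 16 (uNK) annotated entries.

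Members written as 0 in one library were mostly rare in the other. The 175 written as 0 in uNK had 10 to 1613 pNK reads with a median of 32, and 58 of them had fewer than 20. They held 2.53% of the predicted reads of pNK, so most of the predicted pNK signal came from members seen in both libraries. The 32 written as 0 in pNK had 10 to 141 uNK reads with a median of 20.5, and held 1.63% of the predicted uNK reads. At least 100 reads in the other library were reached by 24 of the 175 and by 1 of the 32.

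The most abundant members written as 0 in uNK had 640 to 1613 reads in pNK. novel_mir104 had 1613 reads in pNK (53.7 RPM) and was written as 0 in uNK. novel_mir199 had 1098 pNK reads (36.5 RPM) and novel_mir266 had 958 (31.9 RPM), both with 0 in uNK. novel_mir333 with 872 pNK reads (29.0 RPM) and novel_mir22 with 640 (21.3 RPM) completed the 5 most abundant. What the 0 of these 5 stands for was not tested. The members written as 0 in pNK had fewer reads in the other library. The highest, novel_mir38, had 141 uNK reads (4.44 RPM). After it came novel_mir44 with 76 reads (2.39 RPM), novel_mir185 with 53 (1.67 RPM), novel_mir37 with 51 (1.60 RPM) and novel_mir334 with 46 (1.45 RPM).

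Most predicted miRNAs were scarce. The 244 members with pNK reads had a median of 43 reads (1.43 RPM, quartiles 0.599 and 4.58 RPM), and the 101 with uNK reads had a median of 54 reads (1.70 RPM, quartiles 0.661 and 11.4 RPM). Annotated entries with reads had medians of 12.3 RPM in pNK and 14.7 RPM in uNK. In 193 of the 276 members neither library reached 100 reads. A level of at least 100 RPM was reached by 18 members in pNK and by 6 in uNK, and of at least 1000 RPM by 5 and 0. Ranked with the annotated entries, 5 predicted miRNAs were among the 50 most abundant listed entries of pNK and 1 among those of uNK. The table ranks called entries only.

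Because scarce entries dominated, members were also set beside annotated entries with similar read numbers over both libraries. Of the 29 members with 1000 reads or more, 24 were lower in uNK and 5 higher, and 27 had reads in both libraries. The 172 annotated entries in that class divided into 85 lower and 87 higher, all with reads in both. Of the 57 members with 100 to under 1000 reads, 41 were lower (71.9%), against 36 of 87 annotated entries (41.4%). Restricted to members with reads in both libraries, that class held 19 lower and 15 higher (55.9% lower), and the other 22 lower members were written as 0 in uNK. Of the 190 members under 100 reads, 157 were lower, 151 of them written as 0 in uNK. The lower share was above that of the annotated entries in each class (82.8% against 49.4%, 71.9% against 41.4%, and 82.6% against 41.8%), which describes these 2 libraries and was not tested.

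Reads were concentrated on few members in both libraries. The most abundant member took 21.8% of the predicted pNK reads (interval 21.7 to 21.9%) and another took 18.9% of the predicted uNK reads (18.6 to 19.2%). The 10 most abundant took 85.7% in pNK (85.6 to 85.8%) and 73.0% in uNK (72.6 to 73.3%). Among annotated entries the leading 1 took 35.3% in pNK and 45.4% in uNK, and the 10 most abundant took 80.1% and 79.4%. It took 3 predicted miRNAs to reach 50% of the predicted reads in pNK and 5 in uNK, and 13 and 23 to reach 90%. The order turned at 99%, which took 73 members in pNK and 67 in uNK, out of 244 and 101 with reads there. Annotated entries took 3 and 2 to reach 50%, 21 and 19 to reach 90%, and 74 and 84 to reach 99%. Predicted miRNAs held 3.99% of all listed reads in pNK (3.983 to 4.003%) and 0.511% in uNK (0.507 to 0.515%).

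**Figure D3:**
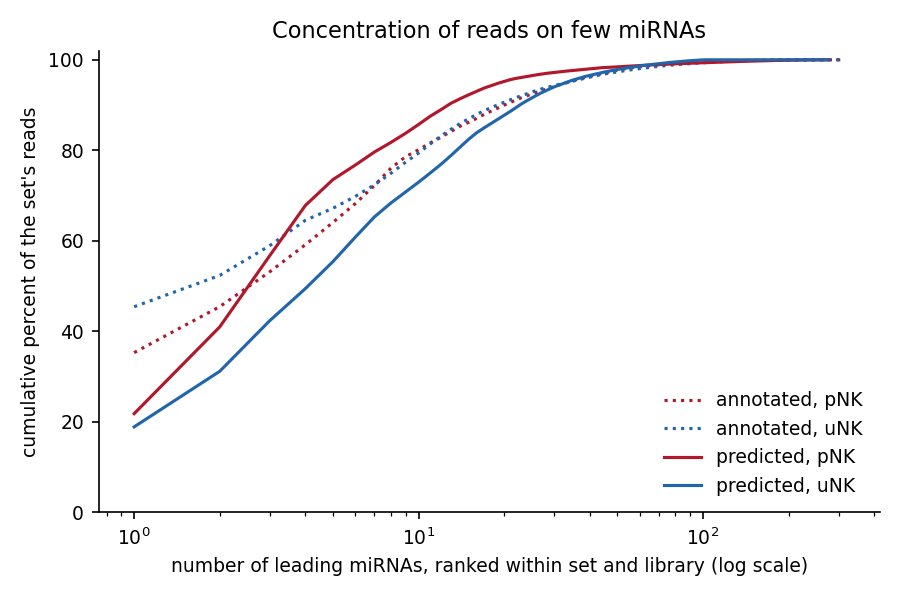
Cumulative percent of a set's reads (y axis) against the number of leading miRNAs, ranked within each set and library (x axis, log scale); solid lines are predicted and dotted lines annotated miRNAs, with pNK in red and uNK in blue. At 10 leading miRNAs the predicted lines stand at 85.7% (pNK) and 73.0% (uNK), above and below the annotated ones at 80.1% and 79.4%.

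All 10 leading members of pNK were lower in uNK, as were 80.4% of all predicted and 62.0% of all listed entries. They were picked by their pNK reads from entries that all had to differ, which by itself favours a lower level in uNK. novel_mir2 led with 124547 reads in pNK (4143 RPM) and 3306 in uNK (104 RPM), 39.8-fold lower in uNK (38.5 to 41.2). It was the 15th most abundant listed entry of pNK, annotated ones included. novel_mir3 followed with 109438 reads (3640.2 RPM) against 6804 (214 RPM), 17.0-fold lower (16.6 to 17.4). novel_mir1 had 89938 reads (2992 RPM) against 4292 (135 RPM), 22.2-fold lower (21.5 to 22.8). These 3 members together passed 50% of the predicted pNK reads. novel_mir229 had 63114 reads (2099 RPM) against 3626 (114 RPM), 18.4-fold lower (17.8 to 19.0). novel_mir4 had 32597 reads (1084 RPM) against 7464 (235 RPM), 4.62-fold lower (4.50 to 4.73), the smallest fold of the 10.

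novel_mir215 stood apart from the other leading members. It had 18420 reads in pNK (613 RPM) and 49 in uNK (1.54 RPM), 397-fold lower in uNK (300.5 to 537). The other 9 lay between 4.62-fold and 39.8-fold lower. Sixth in pNK, it was 54th among the predicted miRNAs of uNK, whereas 6 of the 10 leading members of pNK were also among the 10 leading members of uNK (60.0% of each list). The remaining pNK leaders were closer to the rest. novel_mir6 had 16376 reads (545 RPM) against 1870 (58.8 RPM), 9.26-fold lower (8.82 to 9.72). novel_mir10 had 12090 reads (402 RPM) against 530 (16.7 RPM), 24.1-fold lower (22.1 to 26.4), and novel_mir9 had 11428 (380.1 RPM) against 553 (17.4 RPM), 21.8-fold lower (20.1 to 23.8). novel_mir227 had 11121 reads (370 RPM) against 1042 (32.8 RPM), 11.3-fold lower (10.59 to 12.03).

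The uNK library was led by a member that went the other way. novel_mir7 had 11488 reads in uNK (361 RPM) and 3084 in pNK (103 RPM), 3.52-fold higher in uNK (3.39 to 3.67). It was the only predicted miRNA among the 50 most abundant listed entries of uNK, at rank 47. Of the 10 leading members of uNK, 7 were lower than in pNK and 3 higher, so leading members of uNK were largely those of pNK at a lower level. novel_mir8, one of the 7, had 1467 uNK reads (46.2 RPM) against 10462 in pNK (348 RPM), 7.54-fold lower (7.14 to 7.97). novel_mir331 had 2702 uNK reads (85.0 RPM) against 900 in pNK (29.9 RPM), 2.84-fold higher (2.63 to 3.07). Across the scalings run, its log2(RPM + 1) difference of 1.48 ranged from 0.35 with the median ratio over annotated entries to 2.20 with TMM, and that of novel_mir7, which is 1.81, from 0.66 to 2.54. novel_mir64 was the other one that was higher.

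**Figure D4:**
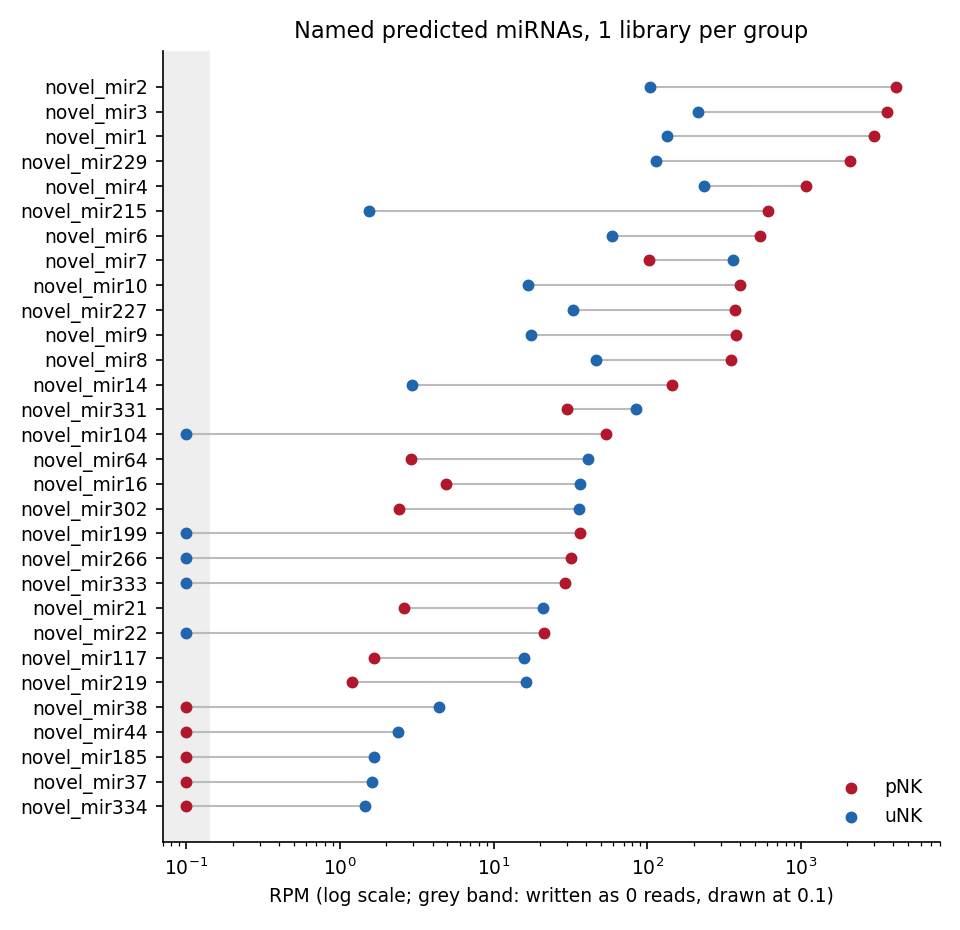
RPM (x axis, log scale) of the 30 named predicted miRNAs (y axis, ordered by reads over both libraries) in the pNK library (red) and the uNK library (blue), 1 library each; the grey band holds values written as 0. Among the 10 uppermost the pNK point lies to the right in all but novel_mir7, and novel_mir215 has the widest gap of those seen in both libraries.

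Among members with at least 100 reads in the higher library, 18 were higher in uNK and 65 lower. Without this filter, 38.0% of all listed entries were higher and 62.0% lower. The largest positive log2(RPM + 1) difference was that of novel_mir64, with 87 reads in pNK (2.89 RPM) and 1312 in uNK (41.3 RPM), 14.3-fold higher in uNK (11.5 to 17.9). novel_mir302 had 73 reads (2.43 RPM) and 1140 (35.9 RPM), 14.8-fold higher (11.7 to 19.0), and novel_mir219 had 36 (1.20 RPM) and 513 (16.1 RPM), 13.5-fold higher (9.61 to 19.5). The intervals of these 3 overlapped. novel_mir16 had 148 reads (4.92 RPM) and 1167 (36.7 RPM), 7.46-fold higher (6.28 to 8.91). novel_mir117 had 50 reads (1.66 RPM) and 501 (15.8 RPM), 9.48-fold higher (7.08 to 12.9), and novel_mir21 had 78 (2.59 RPM) and 663 (20.9 RPM), 8.04-fold higher (6.35 to 10.3). By fold alone the largest increase among members with reads in both libraries was that of novel_mir322, named after its values were seen, with 11 reads in pNK (0.366 RPM) and 202 in uNK (6.36 RPM), 17.4-fold higher (9.50 to 35.4).

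On the RPM scale, folds of the members seen in both libraries spread further downward than upward, and their medians were close. That closeness holds for RPM only. The other scalings shift log2 ratios by -1.15 to 0.74, which moves lower and higher folds in opposite ways and pulls the medians apart. The authors' log2 ratios also lie 0.35 above the RPM scale, so their filter did not cut RPM folds equally in both directions. The 47 lower members were 2.66-fold to 397-fold lower in uNK with a median of 7.52-fold, and 18 of them passed 10-fold. The 22 higher members were 2.15-fold to 17.4-fold higher with a median of 7.20-fold, and 5 passed 10-fold. The 6 members with the largest negative log2(RPM + 1) differences were novel_mir215 (-7.92), novel_mir2 (-5.30) and novel_mir14 (-5.21), with reads in both libraries, and novel_mir104, novel_mir199 and novel_mir266, written as 0 in uNK. For the latter the added 1 RPM sets both the size of the difference and their place among the 6, so no size is given and they are not ranked. With 5 RPM added, novel_mir1 (-4.42), novel_mir10 (-4.23) and novel_mir229 (-4.14) had larger negative differences than any of them. novel_mir14 had 4375 reads in pNK (146 RPM) and 94 in uNK (2.96 RPM), 49.2-fold lower (40.1 to 61.0).

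The number in a name was related to abundance only at the start of the series. Numbers ran from 1 to 349, of which 276 were listed. The 21 members numbered 1 to 24 had a median of 5995 reads over both libraries, and 20 of them had reads in both. They held 76.8% of the predicted pNK reads and 70.7% of those of uNK. The 59 members numbered 25 to 99 had a median of 60 reads, and 14 had reads in both libraries. Above that the medians were 35 reads for the 71 members numbered 100 to 199, 44 for the 88 numbered 200 to 299 and 29 for the 37 numbered 300 to 349. The members numbered 200 to 299 nevertheless held 17.8% of the predicted pNK reads, through novel_mir229, novel_mir215 and novel_mir227. How the numbers were assigned is not given in the sources used here.

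**Figure D5:**
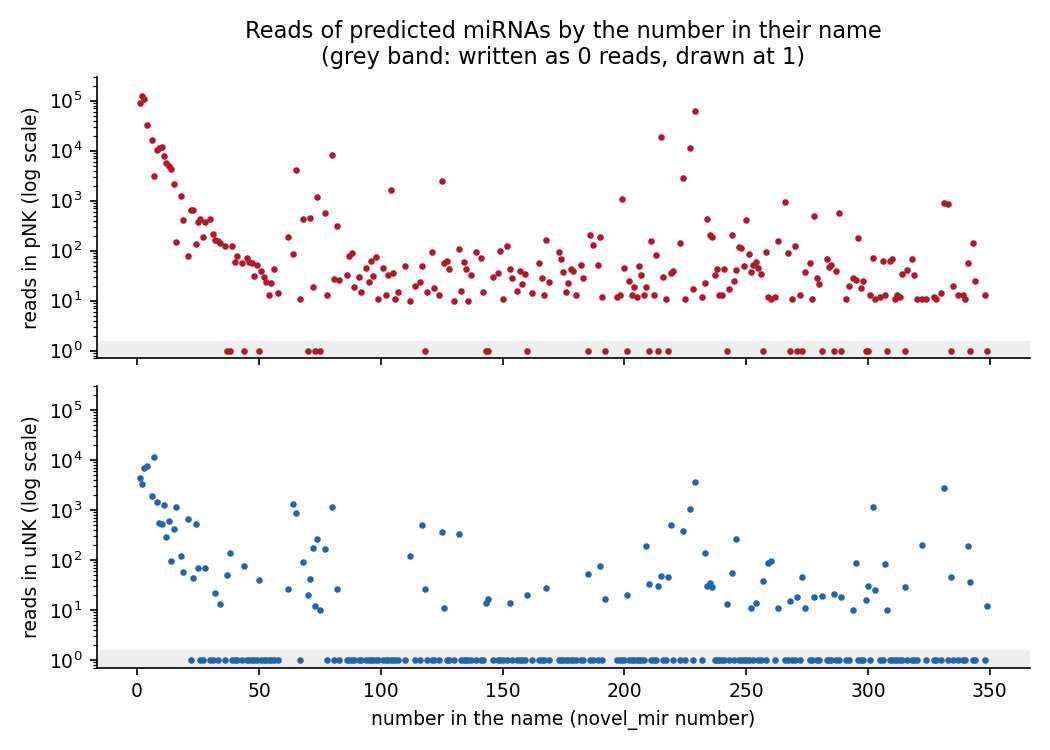
Reads in pNK (upper panel) and uNK (lower panel), both on log scales, of the 276 predicted miRNAs by the number in their name (x axis), 1 point each; the grey bands hold members written as 0. Reads decline over the lowest numbers and show scattered high members after that, and 1 of the 21 members numbered 1 to 24 is written as 0 in uNK.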

How the data were processed

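Small RNA from 1 uNK and 1 pNK library was analysed from a single table of the authors' comparison, named for DEGseq and for a filter. Per the file headers it holds read counts, expression values, a log2 ratio, a p-value and a q-value. The expression values behave as RPM in the deposited table, with a count of 0 written as 0.001. The smallest absolute log2 ratio that the authors deposited is 1.01 and the largest q-value 0.000815. Per the labels' protocols, Trizol was used for extraction. For the aligner, counting and prediction tools, genome build and annotation, the choice is not given in the sources used here.

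RPM was recomputed from the counts and the library totals that entries with at least 5000 reads imply. Folds are RPM ratios with 95% Clopper-Pearson intervals, and log2 differences add 1 RPM, which understates changes of low entries. Directions are those of the authors' deposited table, whose log2 ratios lie 0.35 (median) above the RPM scale for predicted miRNAs with reads in both libraries. Scaling to the summed listed reads in place of the library totals gives the same shift (0.35), so those ratios and the folds here rest on different totals. The deposited direction and that of the RPM ratio differed for 0 predicted miRNAs. Interval coverage was tested on simulated data. The members and lists were chosen with earlier results of these data known. A planned floor of 3 counts was not applied, because no predicted miRNA has 1 to 9 reads. Named members are the 10 most abundant per library, the 6 with the largest difference each way among those with at least 100 reads in the higher library, and the 5 most abundant among those written as 0 in each library. Alternatives were other scalings, TMM in edgeR 4.0.16 (R 4.3.3) among them, count filters, pseudocounts and thresholds. Python 3.11.15, numpy 2.4.6, pandas 2.3.3, scipy 1.17.1 and matplotlib 3.10.9 were used.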

Additional observations from a re-analysis of the deposited data

How the results depend on the processing

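No paired analysis was possible because there was a single library of uNK and a single one of pNK, so neither could be left out. Relative to RPM, the listed totals shifted log2 values by 0.35, TMM by 0.74, the median ratio over all listed entries by -0.67 and that over annotated entries by -1.15; none rests on unchanged miRNAs. Under these scalings 53 or 54 predicted miRNAs were higher in uNK and the rest lower. The 1 that turned is novel_mir303 (11 and 25 reads), named after its values were seen. A scaling cannot turn the 175 members written as 0 in uNK or the 32 written as 0 in pNK. The other members had passed the authors' filter (smallest absolute log2 ratio 1.06). These counts could therefore hardly move and lend the directions no support. Without a filter 54 were higher and 222 lower; with at least 100 reads in the higher library 18 and 65, with an absolute log2 difference of at least 2 10 and 63, and with reads in both libraries, a choice made after the data were seen, 22 and 47. Fewer entries are counted in each.

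The median log2 difference was -0.89 with the listed totals, -0.79 with TMM, -1.17 and -1.31 with the 2 median ratios, -2.39 at 100 reads, -1.53 and -0.26 with pseudocounts of 0.5 and 5 RPM, -1.95 with reads in both libraries and -0.65 with each 0 replaced by 9 reads, the last 2 chosen after the data were seen. Members written as 0 numbered 24 in uNK and 1 in pNK at 100 reads. Their number was the same below 5 or 10 reads as at 0. It could not differ, because no predicted miRNA has 1 to 9 reads. Predicted miRNAs took 1.90% of all pNK and 0.191% of all uNK reads of the library, and 3.15% and 0.415% of the listed reads without their most abundant member. The 5 most abundant took 73.5% (pNK) and 55.4% (uNK) of the predicted reads, the 20 most abundant 95.2% and 87.7%, and the 10 most abundant after the first 84.1% and 69.2%. Of the 30 named members, 17 were lower in uNK under every alternative run, and no direction turned. Many of them were picked for a large difference or for a 0 in one library. A turn was therefore unlikely or impossible for these, and its absence is no support for their directions.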

Other observations

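Both novel_mir26 and novel_mir30 had 437 reads in pNK and 0 in uNK, the only members with at least 100 reads that shared their counts in both libraries; they were named after their values were seen, and whether they share reads was not tested. In the authors' deposited table the q-value was smaller than the p-value for 256 predicted miRNAs, and the p-value was written as 0 for the other 20. The largest p-value of a predicted miRNA there was 0.0143 and the largest q-value 0.000736.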
